A study of Mus musculus with 9 samples.

Results

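The genes described here are 9 that act in the regulated exocytosis of secretory granules: the small GTPases Rab3d, Rab27b and Rab26, the SNARE proteins Vamp8, Vamp2, Stx3 and Snap23, the SNARE-binding protein Stxbp2 and the calcium sensor Syt1. They were chosen by gene name for their role, with earlier results of these data known, and are 9 of the 17132 genes of the deposited table. All 9 were found in it. Expression was measured by sequencing of polyadenylated RNA from whole pancreas of wild-type C57BL/6 mice, 9 libraries in all. QYD mice (libraries 65, 66 and 68) received 7 hourly intraperitoneal injections of caerulein, with lipopolysaccharide (LPS) added to the last, and were given Qingyi Decoction, a mixture of medicinal herbs, at 0 h and again at 8 h. Model mice (libraries 56, 57 and 59) received the same caerulein and LPS injections, with saline in place of the decoction. Control mice (libraries 43, 44 and 45) received saline for both. The series text gives the caerulein dose as 50 mg/kg, and the treatment labels spell the decoction QTD where the titles have QYD. Pancreas was taken at 24 h in all groups, so the time course is not covered. Caerulein is an analogue of cholecystokinin, the hormone that makes acinar cells secrete, and in excess it causes acute pancreatitis in mice. The labels do not give the age or sex of the mice.

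Acinar cells store digestive enzymes in zymogen granules below the apical membrane and release them when a secretagogue raises cytosolic calcium. Rab GTPases on the granule surface guide the granule through maturation, transport and docking. Fusion is carried out by SNARE proteins, of which an R-SNARE on the granule (a VAMP) pairs with Q-SNAREs on the target membrane (a syntaxin and a SNAP protein). Proteins of the Sec1/Munc18 family, such as Stxbp2, bind the syntaxin and assist the pairing, and synaptotagmins couple fusion to calcium in many secretory cells. In mouse acinar cells, VAMP2 and VAMP8 are both found on zymogen granules, and syntaxin 3 is found on the granule membrane.

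The libraries held 19112923 to 20212744 estimated counts, so depth differed little, but their composition differed. The 13 digestive enzyme genes of the acinar marker list (proteases, lipases, amylases and a ribonuclease, Ctrb1, Pnlip and Amy2a5 among them) took 34.3% to 37.6% of the counts in QYD, 34.8% to 39.4% in Model and 64.2% to 65.7% in Control libraries. Values are therefore given on both of the following scales. On the TMM scale (trimmed mean of M-values, which sets the typical gene equal between libraries) the factors were 1.36 to 1.79 in QYD, 1.52 to 1.82 in Model and 0.359 to 0.397 in Control. With library size alone the median log2 fold change of all 12828 tested genes lay higher by 2.15 in Model versus Control and by 2.03 in QYD versus Control, and lower, at -0.118 from the TMM value, in QYD versus Model. Levels below are CPM (counts scaled to a common library total) on the TMM scale unless stated, and "rose" and "fell" are relative to the typical gene. The summed level of 21 acinar marker genes, on library totals, was 357354 to 390543 CPM in QYD, 362195 to 408293 CPM in Model and 659064 to 673526 CPM in Control; the defining acinar markers were present in every library. Control 45 stood apart among the Control libraries in inflammation markers: S100a8, a neutrophil gene, was at 3.88 CPM on library totals there, against 1.10 and 0.74 CPM in Control 43 and 44. The Model versus Control fold changes of the Rabs are also given without it, and the ranges over left-out libraries include its removal. In whole tissue, fewer acinar cells and less RNA per acinar cell cannot be told apart.

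Promoter sequence is shown for 3 of the genes, one of the Rabs and a vesicle and a target membrane SNARE whose behaviour differed from it, to place the measured differences beside the DNA that precedes each gene. The RefSeq promoter table used here (GRCm38.p6) matched 6 of the 9 genes. The 250 bases before the start used in that table are given 5′ to 3′ on the strand of the gene. Gene spans cover all annotated transcripts, so for Rab3d and Snap23 the window runs a few bases into the span given with the results. In the sequences, capitals mark GC boxes (GGGCGG or CCGCCC) and CCAAT boxes (CCAAT or ATTGG).
Rab3d (chr9:21918184-21918433, minus strand): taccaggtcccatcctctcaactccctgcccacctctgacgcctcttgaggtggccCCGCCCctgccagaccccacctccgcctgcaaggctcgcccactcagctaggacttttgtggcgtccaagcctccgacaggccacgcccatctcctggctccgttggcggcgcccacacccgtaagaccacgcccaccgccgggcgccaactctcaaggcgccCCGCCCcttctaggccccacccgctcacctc
Vamp8 (chr6:72390668-72390917, minus strand): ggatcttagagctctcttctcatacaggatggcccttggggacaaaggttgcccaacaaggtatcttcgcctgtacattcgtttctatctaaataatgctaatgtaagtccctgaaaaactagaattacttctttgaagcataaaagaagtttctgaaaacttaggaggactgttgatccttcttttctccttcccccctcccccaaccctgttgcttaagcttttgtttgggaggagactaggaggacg
Snap23 (chr2:120567421-120567670, plus strand): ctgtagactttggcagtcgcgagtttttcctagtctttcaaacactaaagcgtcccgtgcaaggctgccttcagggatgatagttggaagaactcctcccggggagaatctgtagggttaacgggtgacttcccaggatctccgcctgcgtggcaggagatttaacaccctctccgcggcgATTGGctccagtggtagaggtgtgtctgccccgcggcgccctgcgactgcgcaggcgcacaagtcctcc
The Rab3d window was 69.2% G and C and held 2 GC boxes. The Vamp8 window was 43.6% G and C and held no GC box, CCAAT box, TATA box (TATAAA) or E-box (CANNTG). The Snap23 window was 58.4% G and C and held 1 CCAAT box, on the reverse strand. Among all 32851 promoter windows of the same length, 32.7% held a GC box, 33.8% a CCAAT box, 12.4% a TATA box and 66.2% an E-box on either strand, and the median G and C content was 52.4%. Rab3d had no E-box, the motif bound by basic helix-loop-helix factors, which in mouse stomach chief cells include MIST1 (Bhlha15), a factor known to act on Rab3d and Rab26 there. A match or its absence is a description of these letters only.

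The Model versus Control comparison asks what caerulein with LPS changed. Of the 8 members with enough counts to be tested, 4 fell on the TMM scale and none rose, with a median log2 fold change of -0.44 against 0.04 for all tested genes. The background was high: 42.6% of all tested genes passed the adjusted threshold of 0.05 in either direction, 21.3% higher (2736 genes) and 21.3% lower (2728 genes). Scaled by library size alone, 6 of the 8 were higher and none lower, with a median of 1.70 against 2.19 for all tested genes, of which 95.0% passed, 94.0% higher (12064) and 0.943% lower (121). The 3 Rabs lay at the low end of all genes on both scales. On the TMM scale 24.5% of tested genes had a lower fold change than Vamp2 and 26.8% a lower one than Vamp8. For Snap23, Stx3 and Stxbp2, nearer the middle, the shares were 51.5%, 56.7% and 61.3%. Fold changes and adjusted p-values come from the quasi-likelihood test of edgeR, with p adjusted by Benjamini-Hochberg over all 12828 genes.

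Rab3d marks zymogen granules and is among the classical markers of their membrane. It lies at chr9:21907491-21918199 (GRCm38.p6). Rab3d stood at 54.8, 47.8 and 54.1 CPM in QYD 65, 66 and 68, at 47.0, 52.3 and 66.1 CPM in Model 56, 57 and 59 and at 143, 208 and 137 CPM in Control 43, 44 and 45. Every Control library lay above every Model and QYD library, while the QYD and Model libraries overlapped. Of all tested genes 52.3% did not overlap between Model and Control and 52.5% between QYD and Control. The same shares stand beside the lack of overlap of Rab27b and Rab26 below. The mean was 55.1 ± 9.88 CPM in Model and 163 ± 39.3 CPM in Control (SD, n = 3 each). Rab3d fell in Model relative to the typical gene, to 0.338 of Control, with a log2 fold change of -1.56 ± 0.19 (SE, adjusted p = 0.000105), whereas with library size alone the direction turned, at 0.57 ± 0.20 (adjusted p = 0.013). As a share of all reads, therefore, Rab3d was higher in Model, at 85.2, 91.7 and 100.3 CPM on library totals, against 51.5, 80.9 and 54.4 CPM in Control.

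Rab27b acts with Rab3d in granule release and recruits effectors that tether the granule. At chr18:69979131-70141633, it was the least abundant of the Rabs. It was at 1.52, 1.94 and 2.27 CPM in QYD, at 1.63, 1.82 and 1.62 CPM in Model and at 6.57, 12.48 and 11.95 CPM in Control. On the TMM scale the Control libraries did not overlap with either injected group, and Control 43 was the lowest of them. On library totals Rab27b overlapped between Control and both injected groups. It fell in Model to 0.164 of Control on the TMM scale (1.69 ± 0.11 CPM in Model against 10.3 ± 3.27 CPM in Control), a log2 fold change of -2.61 ± 0.25 (adjusted p = 3.0e-05). With library size alone it was -0.47 ± 0.28 and did not pass (adjusted p = 0.12). Only 1.25% of all tested genes had a lower fold change than Rab27b, and 1.66% a lower one than Rab26.

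Rab26 acts in granule maturation and has been studied in chief and acinar cells. It lies at chr17:24529054-24533747. Its level was 3.33, 2.18 and 3.13 CPM in QYD, 3.18, 2.62 and 2.90 CPM in Model and 15.4, 17.2 and 13.1 CPM in Control. On the TMM scale no injected library came near the lowest Control library. On library totals the groups overlapped, with Model 56 at 5.76 and QYD 65 at 5.96 CPM against 5.52, 6.68 and 5.19 CPM in Control. Rab26 fell in Model to 0.191 of Control on the TMM scale (2.90 ± 0.28 CPM in Model against 15.2 ± 2.05 CPM in Control), a log2 fold change of -2.39 ± 0.19 (adjusted p = 7.5e-06), and with library size alone stood at -0.24 ± 0.24 (adjusted p = 0.35). Its annotated span shares 698 bases with Traf7 on the same strand and shares bases with 3 genes on the other strand. No source used here states whether reads were counted by strand, so reads from these neighbours cannot be told apart and the Rab26 counts are uncertain. Without Control 45 the log2 fold changes were -1.67 for Rab3d, -2.50 for Rab27b and -2.49 for Rab26. All 3 kept their call on the TMM scale when any single library was left out.

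**Figure D1:**
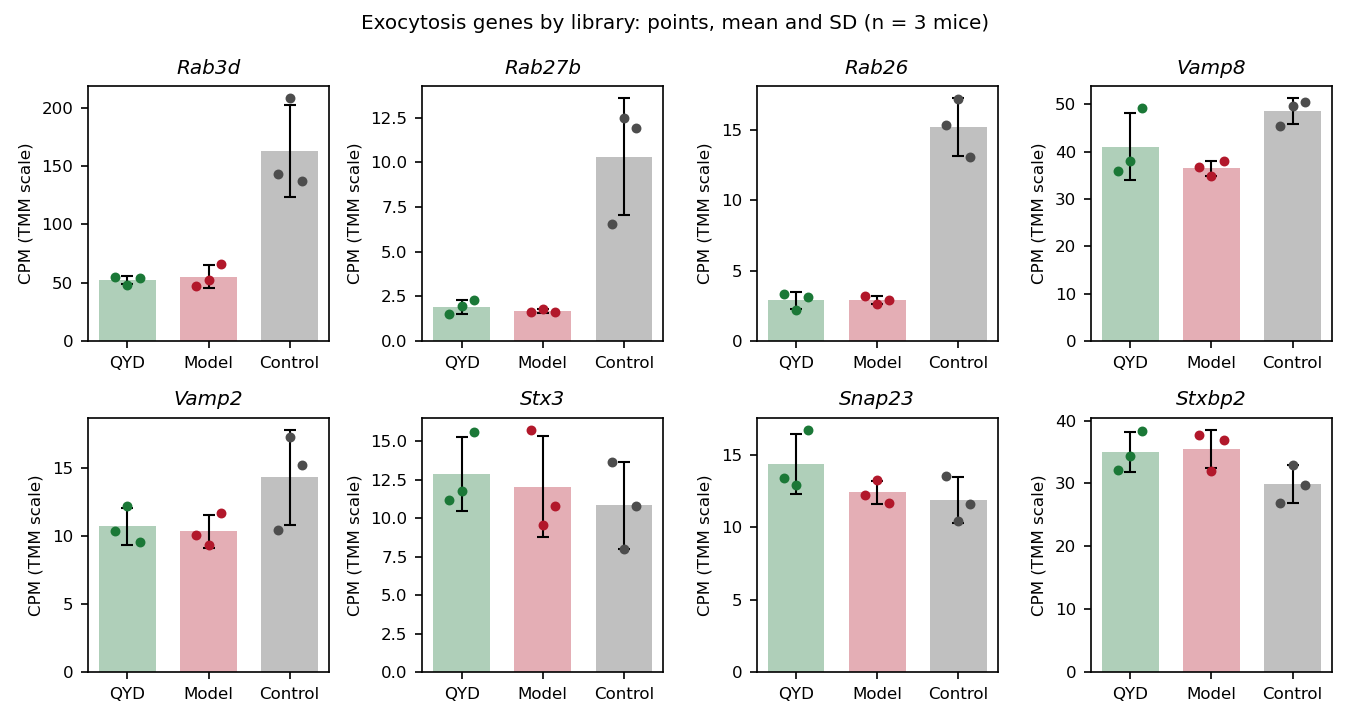
CPM on the TMM scale of the 8 tested genes, each point a library and each bar the mean with its SD (n = 3), with QYD left, Model in the middle and Control right. The 3 Rabs sit far lower in QYD and Model than in Control, for example Rab26 at 2.88 CPM in QYD and 2.90 CPM in Model against 15.2 CPM in Control, while Stx3, Snap23 and Stxbp2 overlap or nearly overlap across groups; with library size alone the direction of Rab3d and of Vamp8 and Vamp2 turns.

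Vamp8 is the R-SNARE needed for most regulated enzyme release in mouse acinar cells. It lies at chr6:72385221-72390667 and was the most abundant member per length in every library. It was at 36.0, 38.1 and 49.2 CPM in QYD, at 36.7, 34.9 and 38.0 CPM in Model and at 45.4, 49.7 and 50.6 CPM in Control. Model and Control did not overlap, which held for 52.3% of all tested genes, and QYD 68 reached the Control range. Vamp8 fell in Model on the TMM scale to 0.752 of Control (36.5 ± 1.58 CPM in Model against 48.6 ± 2.76 CPM in Control), a log2 fold change of -0.41 ± 0.13 (adjusted p = 0.030), but turned to 1.74 ± 0.16 with library size alone. The call was lost without Control 44, Control 45, Model 56, Model 57 or Model 59 (values -0.44 to -0.38) and with no filter on low counts (-0.35, adjusted p = 0.074).

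Vamp2 is the other granule R-SNARE, better known for synaptic vesicles, and lies at chr11:69088528-69092381. Its values were 10.4, 12.2 and 9.57 CPM in QYD, 10.1, 9.38 and 11.7 CPM in Model and 10.5, 17.3 and 15.3 CPM in Control. Control 43 lay within the injected range and the other Control libraries above it. The difference in Model was -0.47 ± 0.18 on the log2 scale (10.4 ± 1.21 CPM in Model against 14.4 ± 3.51 CPM in Control, adjusted p = 0.058) and did not pass. It passed without Control 43 (-0.65, adjusted p = 0.010) and with a filter of at least 5 CPM in 3 libraries (-0.49, adjusted p = 0.047), and with library size alone was 1.67.

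Stx3, the syntaxin of the zymogen granule and apical membrane, lies at chr19:11775118-11821569. It was at 11.2, 11.8 and 15.6 CPM in QYD, at 15.8, 9.59 and 10.8 CPM in Model and at 13.7, 8.02 and 10.8 CPM in Control. All 3 groups overlapped, with Model 56 and QYD 68 high and Control 44 low. Model averaged 12.1 ± 3.27 CPM and Control 10.8 ± 2.84 CPM, a log2 fold change of 0.16 (95% interval -0.37 to 0.69, adjusted p = 0.62).

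Snap23, the ubiquitous partner of syntaxins in non-neuronal secretion, lies at chr2:120567655-120601255. It was at 13.4, 12.9 and 16.7 CPM in QYD, at 12.2, 13.3 and 11.7 CPM in Model and at 13.6, 10.4 and 11.6 CPM in Control. Its range was narrow, with QYD 68 the highest library. Model averaged 12.4 ± 0.82 CPM and Control 11.9 ± 1.58 CPM, and the log2 fold change was 0.07 (95% interval -0.26 to 0.39, adjusted p = 0.75).

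Stxbp2 (also Munc18b), which binds Stx3 in epithelial and blood cells, lies at chr8:3630960-3643998. Its level was 32.1, 34.4 and 38.4 CPM in QYD, 37.6, 31.9 and 36.8 CPM in Model and 27.0, 33.0 and 29.7 CPM in Control. The highest Control library, 44, lay inside the range of both injected groups. Model averaged 35.5 ± 3.08 CPM and Control 29.9 ± 3.00 CPM, with a log2 fold change of 0.25 (95% interval -0.03 to 0.52, adjusted p = 0.14). On library totals the log2 fold changes of Stx3, Snap23 and Stxbp2 stood at 2.33, 2.22 and 2.39, close to the 2.19 of the median gene.

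Syt1, the calcium sensor of synaptic vesicles (chr10:108497650-109010980), was the only member removed by the filter on low counts. Its estimated counts were 3, 2 and 0 in QYD, 2, 2 and 4 in Model and 0, 0 and 4 in Control. The group sums were 5 in QYD (exact Poisson 95% interval 1.62 to 11.7), 8 in Model (3.45 to 15.8) and 4 in Control (1.09 to 10.2), and these intervals cover counting error only. No difference between groups was detectable at this depth. Neuron and Schwann cell markers were also low, summing over 14 genes to 6.33 to 10.5 CPM in QYD, 8.21 to 13.8 CPM in Model and 1.10 to 2.22 CPM in Control on library totals, with Elavl3 and Nefm at 0 in every Control library.

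**Figure D2:**
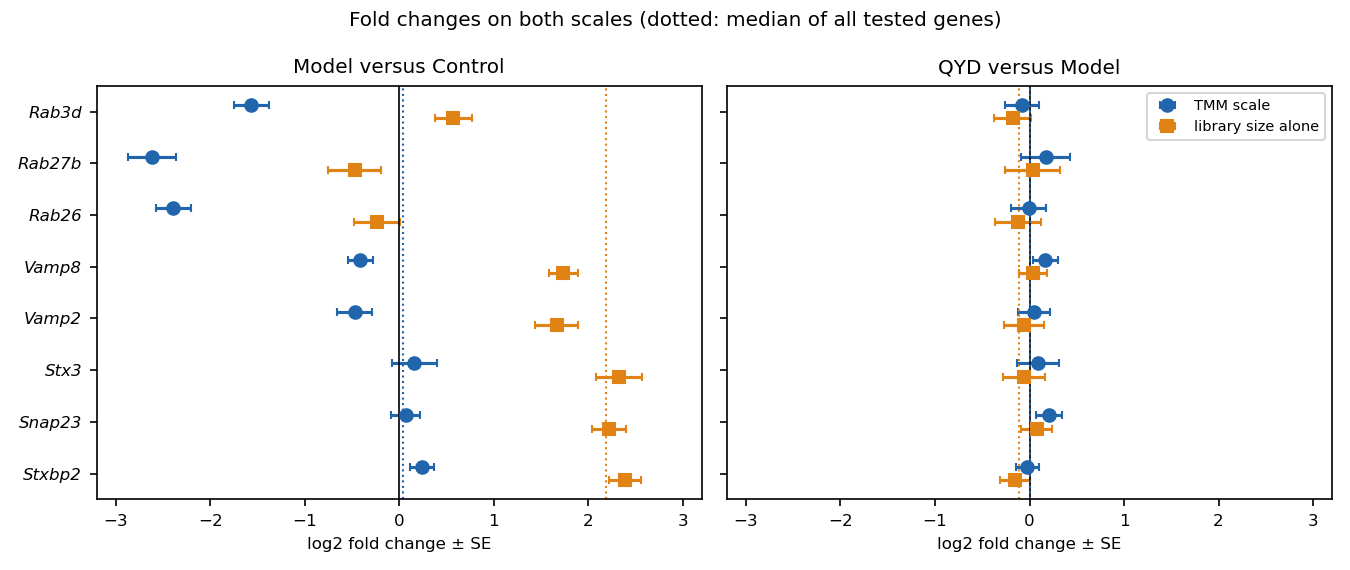
Log2 fold change ± SE of the 8 tested genes in Model versus Control (left) and QYD versus Model (right), on the TMM scale (blue circles) and with library size alone (orange squares); dotted lines are the medians of all tested genes on each scale. In Model versus Control the Rabs lie left of the median gene on either scale (Rab27b at -2.61 and -0.47, the median gene at 0.04 and 2.19), Stx3, Snap23 and Stxbp2 lie close to it, and the sign of Rab3d, Vamp8 and Vamp2 turns between scales.

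Levels between genes are compared per length, in FPKM (fragments scaled by gene length and library total, as deposited). In Control the order ran from Vamp8 (mean 28.2 FPKM) through Rab3d (16.8), Stxbp2 (5.42), Rab26 (4.44), Vamp2 (2.71), Snap23 (2.08), Stx3 (0.98) and Rab27b (0.57) to Syt1 (0.02). Of these neighbours the ranges of Stxbp2 and Rab26 and of Vamp2 and Snap23 overlapped, and the others did not. In Model it ran from Vamp8 (93.7 FPKM) through Stxbp2 (28.6), Rab3d (25.0), Snap23 (9.74), Vamp2 (8.59), Stx3 (6.10), Rab26 (3.76) and Rab27b (0.41) to Syt1 (0.03). There Stxbp2 and Rab3d overlapped, as did each neighbouring pair from Snap23 to Rab26. In QYD the order was the same as in Model, with Vamp8 at 97.0, Stxbp2 at 26.0, Rab3d at 22.1, Snap23 at 10.3, Vamp2 at 8.28, Stx3 at 5.78, Rab26 at 3.48, Rab27b at 0.41 and Syt1 at 0.02 FPKM. There too Stxbp2 and Rab3d, Snap23 and Vamp2, and Vamp2 and Stx3 overlapped. Rab26 thus ranked above Vamp2, Snap23 and Stx3 in Control and below them in both injected groups, with its range overlapping that of Stx3 in Model.

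Because these genes are set against each other within a library, their shares do not depend on the scaling between libraries. Of the summed TPM (the deposited length-scaled share of transcripts) of the 9 genes, the 3 Rabs took 14.9% ± 1.91 in QYD, 16.7% ± 1.96 in Model and 35.5% ± 4.42 in Control (SD, n = 3 each). Rab3d alone took 12.7% in QYD, 14.3% in Model and 27.3% in Control. Rab26 took 1.99% in QYD, 2.13% in Model and 7.28% in Control. Vamp8 held 55.98% in QYD, 53.3% in Model and 46.2% in Control, and Stxbp2 held 15.0% in QYD, 16.2% in Model and 8.84% in Control. The shares add up to the whole, so a smaller share of the Rabs leaves larger shares for the other genes. On the TMM scale Vamp8 was lower in Model, at 0.752 of Control, and Stxbp2 did not pass.

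**Figure D3:**
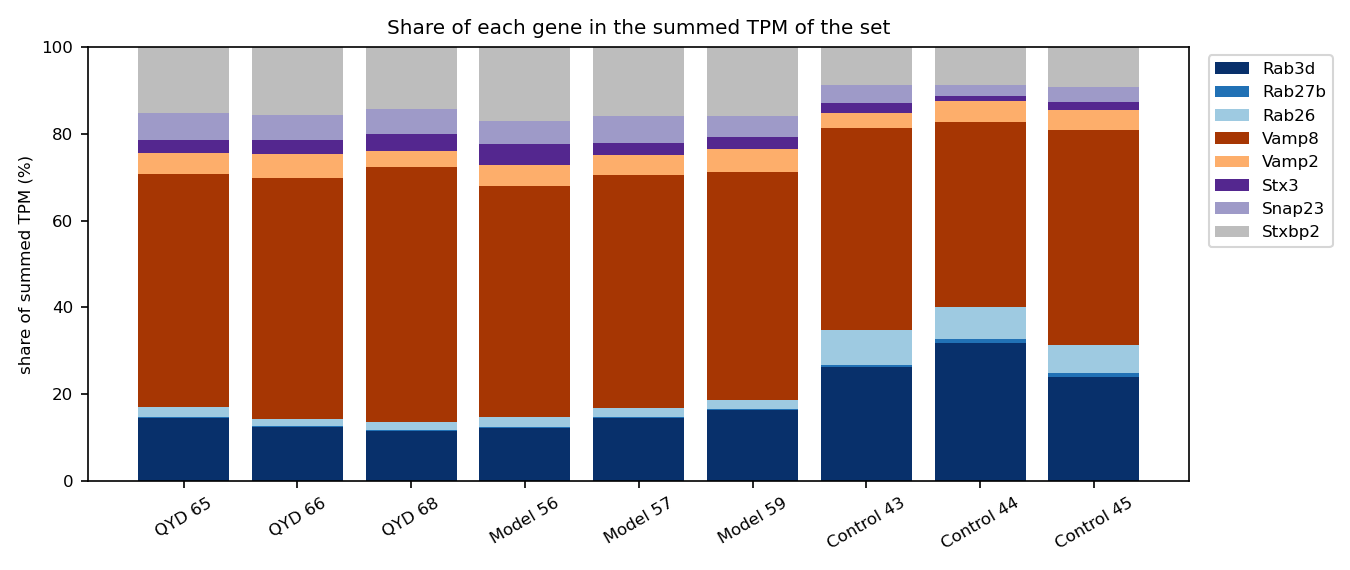
Share (%) of each gene in the summed TPM of the set, one bar per library, with QYD left, Model in the middle and Control right; Syt1, at most a trace, is not drawn. The 3 Rabs (blue, at the bottom) take 14.9% and 16.7% on average in QYD and Model against 35.5% in Control.

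Ratios of 2 genes in FPKM within a library put numbers on this. The ratio of Rab3d to Vamp8 was 0.269, 0.222 and 0.193 in QYD, 0.227, 0.269 and 0.310 in Model and 0.561, 0.745 and 0.484 in Control. The injected libraries overlapped with each other and lay below all Control libraries. The geometric mean was 0.266 in Model and 0.587 in Control, a log2 difference of -1.14 (exact two-sided permutation p = 0.1, the smallest that 3 against 3 allows, adjusted p = 0.26 over 21 tests). Within the Rabs, Rab3d to Rab27b was 61.6 in Model against 30.4 in Control (log2 difference 1.02) and Rab3d to Rab26 was 6.68 in Model against 3.73 in Control (0.84), both without overlap and at the same exact p and adjusted p. Vamp8 to Snap23 was 9.66 in Model and 13.6 in Control (-0.49, no overlap, the same exact p). Vamp8 to Vamp2 was 10.9 in Model and 10.7 in Control, a log2 difference of 0.03 (exact permutation p = 1). The ratio of Stx3 to Snap23 was 0.594 in Model and 0.462 in Control (0.36, exact permutation p = 0.4), and that of Stx3 to Stxbp2 was 0.202 in Model and 0.177 in Control (0.19, exact permutation p = 0.7). In these 3 pairs the groups overlapped. The share of all gene pairs without overlap was not computed. Of single tested genes, 52.3% did not overlap between Model and Control on the TMM scale, so lack of overlap alone sets no pair apart.

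**Figure D4:**
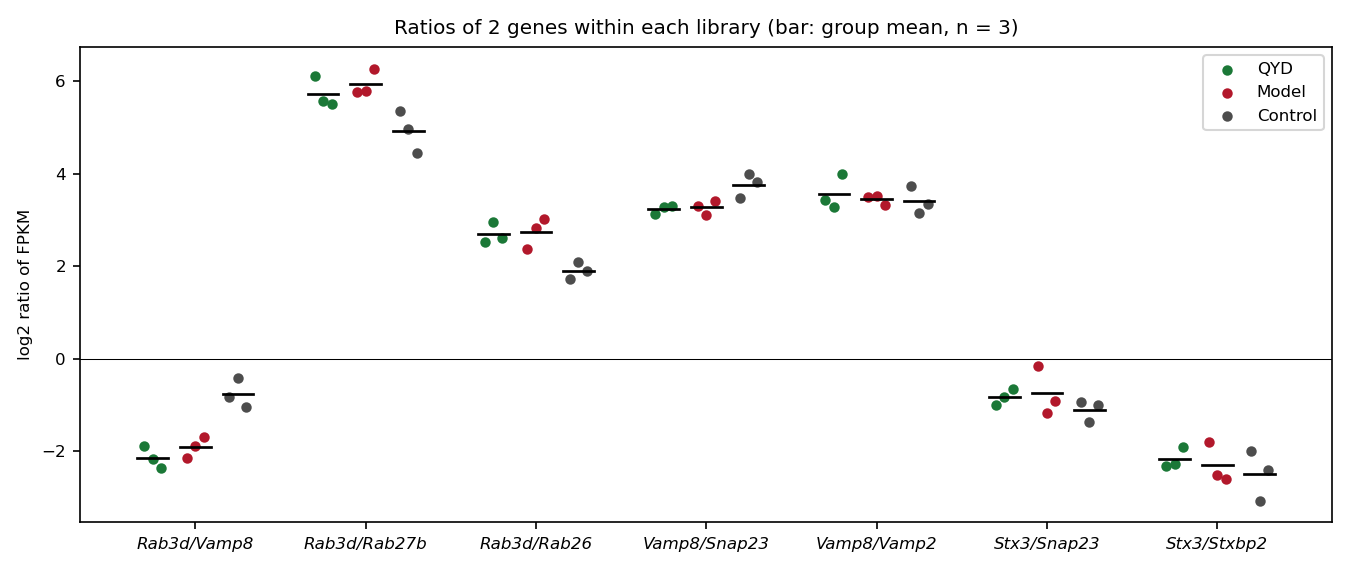
Log2 ratio of the FPKM of 2 genes within each library for 7 pairs, each point a library and each bar a group mean (n = 3), with QYD left, Model in the middle and Control right of each pair. Rab3d/Vamp8 and Vamp8/Snap23 lie lower, and Rab3d/Rab27b and Rab3d/Rab26 higher, in all QYD and Model libraries than in all Control libraries, and the remaining pairs overlap. The share of all gene pairs without overlap was not computed.

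The members were also set against transcripts of the granule cargo. The enzyme genes took a smaller share of the counts in Model than in Control. On library totals the median gene was itself higher in Model by 2.19 log2 units. A higher value per enzyme count is therefore not by itself a rise relative to the typical gene. The folds and the lack of overlap on this scale were not computed for all genes. Per 1000000 counts of the 13 enzyme genes, Rab3d had 252 ± 12.9 counts in Model and 95.9 ± 25.0 in Control (2.68-fold), Rab26 had 13.5 ± 2.48 in Model and 8.92 ± 1.19 in Control (1.502-fold) and Rab27b had 7.88 ± 1.48 in Model and 6.14 ± 2.21 in Control (1.34-fold). For Rab3d and Rab26 the groups did not overlap (exact permutation p = 0.1, adjusted p = 0.17 over 24 tests), and for Rab27b they did (exact permutation p = 0.4). In QYD Rab3d had 195 to 285 counts and Rab27b 7.91 to 8.27, both above every Control library (78.3 to 124.5 and 3.59 to 7.46, exact permutation p = 0.1, adjusted p = 0.17), while Rab26 had 8.90 to 17.3 in QYD and overlapped with Control, at 8.08 to 10.3 (exact permutation p = 0.2). The Model to Control folds of the fusion genes lay between 5.80-fold for Vamp2 (47.8 ± 2.98 in Model, 8.50 ± 2.45 in Control) and 9.34-fold for Stxbp2 (164 ± 24.6 in Model, 17.6 ± 2.58 in Control).

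The counts and FPKM of a gene together give the length by which its counts were divided, which for a gene with several isoforms depends on which of them the authors' software assigned reads to. For Stx3 this length was 3581, 3507 and 3233 bases in QYD, 3103, 3551 and 3777 bases in Model and 4238, 4390 and 4042 bases in Control. All injected libraries lay below all Control libraries. The Model mean was lower than that of Control by 17.7% (percent change -17.7, exact permutation p = 0.1), and of the 5295 genes with at least 50 counts and 0.5 FPKM in each library 0.359% moved as far. The QYD mean differed from that of Control by -18.5%, as far as 0.246% of those genes. The other 6 members evaluated moved by at most 1.2%. Lack of overlap was not particular to Stx3. In QYD versus Control, Rab3d, Rab26, Vamp8 and Vamp2 also did not overlap (exact permutation p = 0.1), with changes of only -0.12% to -0.86%. The share of all genes without overlap in this length is not given here. This property was examined after values were seen and is given as a description, and the isoforms themselves were not analysed here.

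The QYD versus Model comparison asks what the decoction changed in injected mice. None of the 8 tested members passed, and 0% of all 12828 genes did, with 750 genes at an unadjusted p under 0.05 by edgeR, and adjusted p of 0.83 to 0.99 for the members. DESeq2 also called 0 genes (714 at an unadjusted p under 0.05) and limma-voom called 1 (1530). The log2 fold changes were -0.08 for Rab3d (95% interval -0.48 to 0.32), 0.17 for Rab27b (-0.39 to 0.73) and -0.01 for Rab26 (-0.42 to 0.40). Among the fusion genes they were 0.17 for Vamp8 (-0.12 to 0.46), 0.05 for Vamp2 (-0.33 to 0.43), 0.09 for Stx3 (-0.39 to 0.57), 0.21 for Snap23 (-0.09 to 0.51) and -0.02 for Stxbp2 (-0.29 to 0.25). The upper bound for Rab26 was 0.40, and the Rab26 difference between Model and Control was -2.39. The intervals do not show that the groups were alike. Of the 7 ratios, that of Rab3d to Vamp8 was 0.226 in QYD and 0.266 in Model (log2 difference -0.24, exact permutation p = 0.2), and all 7 overlapped between these groups.

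The QYD versus Control comparison shares its Control libraries with that of Model, so the 2 are not independent. Of the 8 tested members the 3 Rabs fell on the TMM scale and none rose, with a median of -0.33 (0.06 for all tested genes). In all, 40.7% of tested genes passed, 20.5% higher (2624 genes) and 20.3% lower (2598 genes). Scaled by library size alone, 94.8% passed, 93.8% higher and 0.990% lower, and 5 members were higher and none lower. Rab3d fell with a log2 fold change of -1.64 ± 0.19 (52.2 ± 3.84 CPM in QYD against 163 ± 39.3 CPM in Control, adjusted p = 9.7e-05), which turned to 0.39 with library size alone (adjusted p = 0.069). Rab27b fell at -2.44 ± 0.25 (1.91 ± 0.38 CPM in QYD against 10.3 ± 3.27 CPM in Control, adjusted p = 5.5e-05), with -0.44 with library size alone. Rab26 fell at -2.40 ± 0.19 (2.88 ± 0.62 CPM in QYD against 15.2 ± 2.05 CPM in Control, adjusted p = 9.0e-06), with -0.36 with library size alone, where neither passed. Vamp8 stood at -0.24 (adjusted p = 0.17), Vamp2 at -0.42 (0.087), Stx3 at 0.25 (0.43), Snap23 at 0.28 (0.16) and Stxbp2 at 0.22 (0.18). Vamp8 passed without QYD 68 (-0.39) and Vamp2 without Control 43 (-0.60). Rab3d to Vamp8 was 0.226 in QYD against 0.587 in Control (log2 difference -1.38, exact permutation p = 0.1).

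Other genes of the same steps were counted from lists drawn up by role. The lists leave out the 9 members, and their counts stand beside 21.3% of all tested genes higher and 21.3% lower in Model versus Control, where the median was 0.04. In that comparison 8 of 28 tested secretory Rabs and Rab regulators fell and 6 rose (median -0.03). Rab4a, of early endosome recycling, fell by 1.22 on the log2 scale (-1.22 ± 0.14), Rabac1, a Rab acceptor at the Golgi, stood at -1.19 ± 0.13, Rab27a, the paralogue of Rab27b, at -1.10 ± 0.18, and Rab4b at 1.07 ± 0.17. Of 18 Rab effectors and granule motors 4 fell and 3 rose (median 0.05). Myrip, which links Rab27 to myosin, had 1.53 ± 0.47 CPM in Model and 11.01 ± 2.45 CPM in Control, a log2 fold change of -2.85 ± 0.25 (adjusted p = 1.5e-05), and it kept its direction and passed with library size alone (-0.71, adjusted p = 0.021). Rab11fip5 and Rab11fip1, effectors of Rab11, rose by 1.02 ± 0.21 and 0.77 ± 0.23, and Unc13b, a priming factor, stood at -0.56 ± 0.13. Of 23 Q-SNAREs 4 rose and 4 fell (median 0.03), those that fell being led by Bet1 (-1.67 ± 0.17) and Use1 (-1.002 ± 0.14), which act between the endoplasmic reticulum and the Golgi, with Stx5a (-0.63 ± 0.13) and Stx18 (-0.56 ± 0.13).

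Among 10 other R-SNAREs 3 fell and 1 rose (median -0.12). Those that fell were Vamp4 (-0.54 ± 0.16), Vamp7 (-0.53 ± 0.17) and Stxbp5 (tomosyn, which competes with VAMPs, -0.62 ± 0.12). Vamp4 and Vamp7 here, and Syt3 and Sytl5 in the plot of these lists, fall below 10 CPM and were named after their values were seen. Vamp3, the R-SNARE of recycling endosomes, rose by 0.44 ± 0.12, while Sec22b (-0.08) and Ykt6 (0.05) did not pass. Of 15 SM proteins and disassembly factors 5 fell and 2 rose (median 0.02), with Scfd2 at -1.48 ± 0.22 and the SNAP adaptors of NSF, Napa and Napg, at -0.68 ± 0.12 and -0.67 ± 0.13, and Scfd1 at -0.66 ± 0.23 (adjusted p = 0.041). Of 12 calcium sensors and complexins 3 rose and 1 fell (median -0.08). Anxa7 rose by 0.45 ± 0.14, and Tpd52, an acinar protein of calcium-regulated secretion, stood at -0.06 and did not pass (adjusted p = 0.70). The exocyst, a tethering complex, had 5 of 12 genes higher and 1 lower (median 0.46), with Exoc4 at 1.55 ± 0.17, Exoc6b at 1.44 ± 0.18 and Exoc7 at 0.49 ± 0.14, while Exoc5 (-0.31) did not pass. With library size alone all of the genes given a fold change in this and the previous paragraph but Myrip had positive values. The falls of Rab4a, Rabac1, Rab27a, Bet1, Use1, Stx5a, Stx18, Unc13b, Stxbp5, Scfd2, Scfd1, Napa, Napg, Vamp4 and Vamp7 therefore turned. Sytl5, named for the plot, stood at -0.27 on that scale and did not pass. In QYD versus Model no gene of any of these lists passed.

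**Figure D5:**
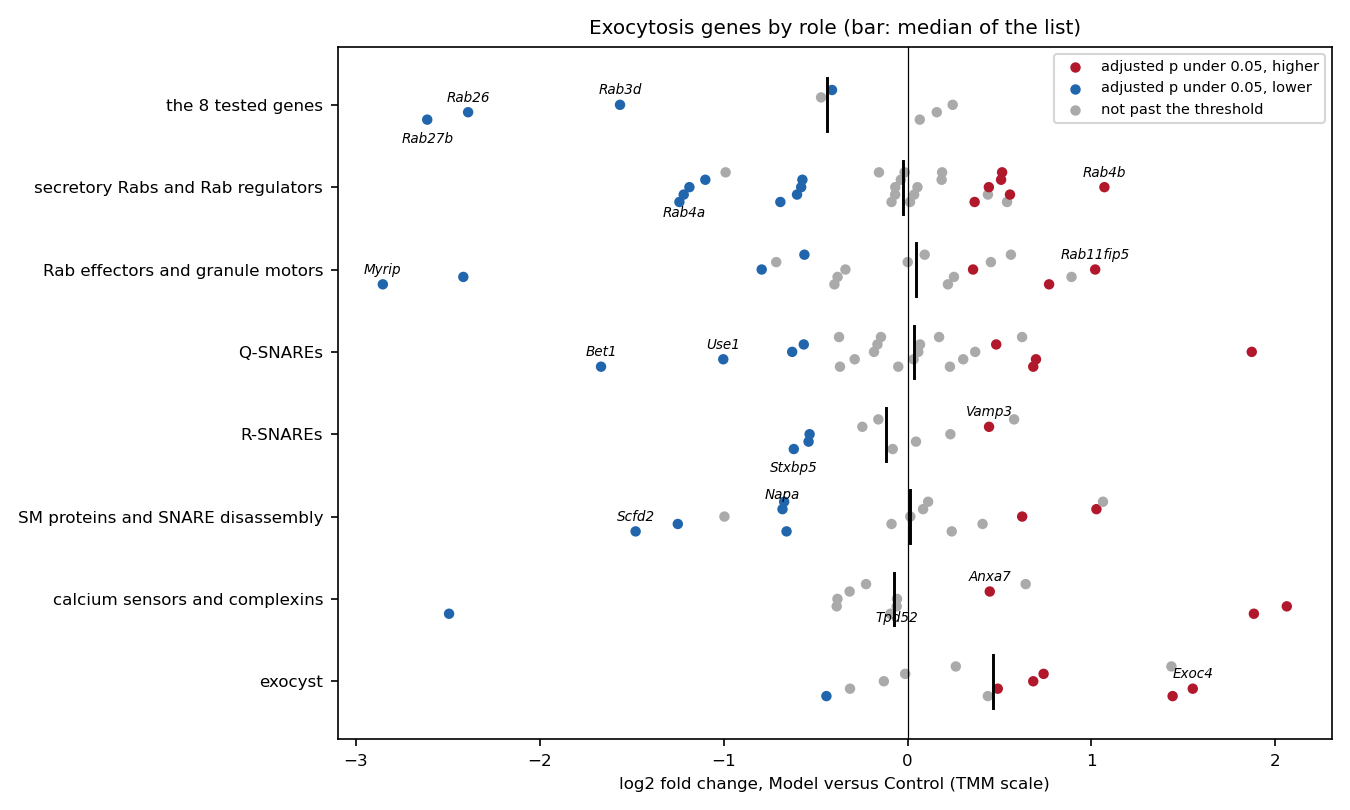
Log2 fold change in Model versus Control on the TMM scale of every tested gene of the set (top) and of 7 lists of exocytosis genes, with genes that passed in red (higher) or blue (lower), the others grey and a bar at the median of each list. Myrip (-2.85), Rab27b (-2.61), Syt3 (-2.49), Sytl5 (-2.42) and Rab26 (-2.39) lie farthest left, and the exocyst has the highest median (0.46). With library size alone nearly all genes of the 7 lists are higher. On that scale Myrip (-0.71), Rab27b (-0.47), Sytl5 (-0.27) and Rab26 (-0.24) have negative values, of which only that of Myrip passed. The value of Syt3 on that scale is not given here. Of the 12 tested calcium sensors and complexins, its list, 11 were higher and 0 lower there.

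Genes most like each member were sought among 5606 genes of at least 10 CPM in 1 group, by the root mean square difference of log2 CPM over the 9 libraries, each gene centred on its own mean. Rab27b was nearest to Cela3b (0.244) and Pnliprp1 (0.263), an elastase and a lipase-related protein of the pancreas. Rab3d was nearest to Fem1a (0.105) and Dusp26 (0.109), and Rab26 to Pecr (0.123) and Nnt (0.149). Vamp8 was nearest to Zfand6 and Mat2b (0.078 each), Vamp2 to Agpat3 (0.097) and Cmtm4 (0.104), Stx3 to Cd24a (0.102) and Gnai3 (0.121), Snap23 to Ntan1 (0.052) and Cfdp1 (0.070), and Stxbp2 to Ccdc124 (0.063) and Abtb1 (0.068). Among the members, Snap23 and Stxbp2 differed least (0.217) and Rab27b and Stx3 most (1.34). The Rabs differed from each other by 0.373 to 0.514 and from Stx3 by 0.953 to 1.34.

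Markers of other cells were summed on library totals, a scale on which the median gene was itself higher in Model by 2.19 log2 units. Neutrophil markers (12 genes) were at 250 to 411 CPM in QYD, 216 to 366 CPM in Model and 4.11 to 17.7 CPM in Control. In Model versus Control 10 of these 12 rose on the TMM scale, and all 12 were higher with library size alone. Macrophage markers (10 genes) were at 392 to 527 CPM in QYD, 335 to 624 CPM in Model and 46.1 to 73.2 CPM in Control. Duct markers (9 genes) were at 716 to 1040 CPM in QYD, 876 to 1630 CPM in Model and 93.9 to 134 CPM in Control. Mast cell markers (8 of 9 genes in the table) were at 12.6 to 21.6 CPM in QYD, 12.5 to 19.3 CPM in Model and 4.36 to 6.93 CPM in Control, with Ms4a2 at 0 in Model and Control. Platelet markers (6 genes) were at 14.4 to 19.9 CPM in QYD, 14.2 to 22.6 CPM in Model and 1.73 to 2.31 CPM in Control, with Gp9 at 0 in QYD and Control and Ppbp at 0 in Control. B and T cell markers (8 genes) were at 1.22 to 28.7 CPM in QYD, 0.78 to 17.5 CPM in Model and 1.24 to 4.97 CPM in Control. Endothelial markers (7 genes) were at 73.4 to 127 CPM in QYD, 98.0 to 134 CPM in Model and 17.5 to 27.4 CPM in Control, and fibroblast and stellate cell markers (8 genes) at 363 to 857 CPM in QYD, 428 to 832 CPM in Model and 105 to 137 CPM in Control. Islet markers (13 genes) were at 221 to 312 CPM in QYD, 268 to 679 CPM in Model and 317 to 517 CPM in Control. The Model range overlapped with both others, and the QYD range lay just below that of Control. The B and T cell markers overlapped between all groups. Relative to the typical gene, 9 of 13 islet markers fell and 0 rose in Model versus Control (median -1.29). In QYD versus Control 10 fell and 0 rose (median -1.92). In Model versus Control on the TMM scale, 5 of 9 duct, 5 of 10 macrophage, 2 of 7 endothelial and 1 of 3 tested mast cell markers rose. In each of these lists 1 marker fell. Of 8 fibroblast and stellate cell markers 3 rose and 2 fell. Over all tested genes 21.3% were higher and 21.3% lower. All 21 acinar markers fell in Model relative to the typical gene (median -3.13), of which 16 were lower and 4 higher with library size alone. Their part in the levels of Vamp8, Stx3, Snap23 and Stxbp2, which blood, immune and duct cells also express, and of the Rabs was not tested.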

How the data were processed

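Per the labels' protocols, mRNA was purified on oligo(dT) beads from Trizol extracts of pancreas. RSEM 1.2.12, HISAT2 2.0.4 and Bowtie2 2.2.5 appear, with build GRCm38.p6, in the submitters' processing notes, and their roles are not stated. The authors deposited estimated counts per gene and library, of which 93.6% were whole (tolerance 1e-09), with all 81 values of the 9 genes whole. The same table holds the authors' FPKM and TPM, which divide counts by gene length and by a library total. Columns of group averages were not used.

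Counts were rounded for the test in edgeR 4.0.16 (R 4.3.3): default expression filter (12828 genes kept, 4304 removed), TMM scaling and 1 quasi-likelihood model of group over all 9 libraries, with 6 residual degrees of freedom, a biological coefficient of variation of 0.175 and Benjamini-Hochberg adjustment at 0.05. Ratios within libraries were compared by exact two-sided permutation. The labels give 9 separate mice by title only, so p-values measure the spread between these libraries. Named genes were all members, up to 4 tested genes per role list with the smallest p and at least 10 CPM in a group, 2 nearest genes per member and cell type markers. The members and lists were chosen with earlier results of these data known. Scripts were tested on simulated data. Alternatives were scaling by RLE, by library size alone and by TMM with the top 50 genes left out, no filter or one of 5 CPM, DESeq2 1.42.0, limma 3.58.1, only the compared groups, and each library left out.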

Additional observations from a re-analysis of the deposited data

How the results depend on the processing

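Scaling set the result most. With library size alone 12185 genes passed in Model versus Control and 12155 in QYD versus Control, and limma called 10083 and 10077 on log2(FPKM + 1), and 10086 and 10071 on log2(FPKM + 0.1). FPKM is itself on library totals. On these 3 settings 5, 6 and 5 members passed in QYD versus Control. In QYD versus Model limma-voom and limma on either FPKM scale called 1 gene each. Signs turned, in the order library size, FPKM + 1 and FPKM + 0.1, for Rab3d (0.57, 0.57 and 0.59 in Model versus Control; 0.39, 0.39 and 0.41 in QYD versus Control), for Vamp8 (1.74, 1.70 and 1.73; 1.77, 1.75 and 1.78) and for Vamp2 (1.67, 1.39 and 1.67; 1.61, 1.33 and 1.60). In QYD versus Model they turned for Stx3 (-0.058, -0.0079 and -2.6e-05) and Vamp2 (-0.058, -0.062 and -0.071). The log2 ratio of Stx3 to Snap23 turned with FPKM + 1 (-0.011 in Model versus Control, -0.093 in QYD versus Control) and with counts (-0.0076 in QYD versus Control). That of Stx3 to Stxbp2 turned with counts (-0.093 in Model versus Control) and with FPKM + 1 (-0.42 in Model versus Control, -0.30 in QYD versus Control). Counts are not divided by a length, and the implied Stx3 length differed between groups. Rab27b was not tested at a filter of 5 CPM or on the FPKM scale.

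Under the 7 other settings (6 for Rab27b) the Rabs kept direction and call in Model versus Control, with Rab3d at -1.58 to -1.46, Rab27b at -2.62 to -2.55 and Rab26 at -2.41 to -2.33. Leaving out each library gave -1.71 to -1.34, -2.85 to -2.45 and -2.49 to -2.29. In those fits 3 to 5 members were called, beside 4583 to 5307 of all tested genes. The cause of the other changes was not tested. Signs turned under a left-out library in values that never passed: in QYD versus Model Rab26 (-0.13 to 0.16), Rab3d (-0.18 to 0.074), Stx3 (-0.076 to 0.33), Stxbp2 (-0.099 to 0.037) and Vamp2 (-0.054 to 0.14), and in Model versus Control Snap23 (-0.014 to 0.17) and Stx3 (-0.081 to 0.36). Among ratios they did so in QYD versus Model for Rab3d to Rab26 (-0.22 to 0.093), Stx3 to Snap23 (-0.29 to 0.22), Stx3 to Stxbp2 (-0.012 to 0.38), Vamp8 to Snap23 (-0.12 to 0.036) and Vamp8 to Vamp2 (-0.096 to 0.27), in Model versus Control for Vamp8 to Vamp2 (-0.10 to 0.19) and Stx3 to Stxbp2 (-0.10 to 0.44), and in QYD versus Control for Vamp8 to Vamp2 (-0.067 to 0.32). No paired analysis was possible because the groups share no replicate numbers. With 3 mice a group an exact permutation cannot go below 0.1, and depth limits Syt1, at 0 to 4 counts a library.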
